A study of Mus musculus with 76 samples.

Results

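The semaphorins are guidance ligands, and the plexins and neuropilins are their receptors. All 31 genes of this system that the rule names were found in the deposited table by their Ensembl identifiers, mapped to symbols in the GENCODE M21 annotation of the mouse build GRCm38. They comprise 20 semaphorins, 9 plexins and 2 neuropilins, out of 37607 genes with a symbol and 38924 genes in all. The genes were chosen as a family and not by a filter on their values, though earlier results of these data were known.

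RNA was sequenced in neural cultures derived from embryonic stem cells of the inbred mouse strains C57BL/6J (B6), the reference laboratory strain, and WSB/EiJ (WSB), a wild-derived strain. The labels give 3 stages, namely differentiation into neural progenitor cells (NPC), maturation, and axonal regrowth (axon). Each stage had control cultures and cultures exposed to ID-8, a compound that blocks Dyrk1a kinase. For axonal regrowth each of these was left uncut or had its axons cut (axotomy). The 70 libraries fell into 16 groups. At the NPC stage B6 control, B6 ID-8, WSB control and WSB ID-8 had 6 libraries each. At maturation the same 4 groups had 4 each. At the axon stage B6 control uncut, B6 control cut, B6 ID-8 uncut, WSB control uncut, WSB control cut and WSB ID-8 cut had 4 each, while B6 ID-8 cut and WSB ID-8 uncut had 3 each. The dose and time of ID-8 and the number of stem cell lines per strain are not given in the sources used here, so a strain difference is a difference between these cultures.

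Class 3 semaphorins are secreted and bind mostly through neuropilins, which pass the signal on with plexins of the A family. Classes 4, 5 and 6 span the membrane and bind plexins directly, and Sema7a is held by a lipid anchor and binds Plxnc1 and integrins. Plexins carry a GTPase-activating domain that acts on small G proteins of the Ras family, and in growing axons their activation is best known for collapsing growth cones, although several pairs also attract axons, position neurons or shape synapses.

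Levels are expected counts scaled to the library's total on the usual CPM scale, and differences are log2 differences ± standard error from edgeR's quasi-likelihood test on TMM-scaled counts. A gene was called at a Benjamini-Hochberg adjusted p under 0.05 over all genes tested at that stage. Library totals ran from 22882446 to 131489448 expected counts at the NPC stage, 25122673 to 41736050 at maturation and 20369003 to 99188631 at the axon stage. Nothing says that replicates came from separate cell lines, so p-values measure the spread between these libraries.

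Dyrk1a itself, whose product ID-8 inhibits, lay between 79.8 and 162.6 CPM in the 70 libraries. Some libraries stood apart. Maturation libraries came from 2 culture experiments, replicates 1 and 2 from one and 3 and 4 from the other. Axon libraries came from 4 culture sets per strain, and these differed in markers of other cells. In the first WSB set the summed level of 9 fibroblast markers was 58.6 to 83.6 CPM, against 1296 to 7510 CPM in the other WSB sets, and 7 astrocyte markers summed to 1567 to 1729 CPM against 3920 to 18540 CPM. At the axon stage the library labelled WSB ID-8 cut replicate 3 did not follow the other libraries of its set, and results of WSB cultures with ID-8 at this stage are given with and without it. All 9 pan-neuronal markers had a mean of at least 1 CPM in each of the 16 groups, but fibroblast and astrocyte markers did as well at maturation and the axon stage, so the cultures were mixed. In such bulk samples fewer cells of a type and less RNA per cell cannot be told apart.

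Receptors led the order of levels in control cultures, except in uncut WSB cultures of the axon stage, where a ligand did. Per kilobase of annotated exon, Plxna1, a receptor subunit for class 3 and class 6 semaphorins, was highest in control NPC cultures, at 49.3 CPM per kb in B6 and 55.6 in WSB. Plxnb2, a receptor for class 4 semaphorins with known roles in neural progenitors, came next there and was highest at maturation, at 50.9 and 48.1 CPM per kb. The transmembrane ligand Sema6d stood at the head of the order in uncut WSB control cultures of the axon stage, at 48.4 CPM per kb, and held the third place in B6 at 22.7. Sema3g and Plxnb3 were lowest or next to lowest in every NPC and maturation control group. Averaged over the 16 groups, Plxnb2 stood at 39.2, Sema6d at 33.3 and Plxna1 at 30.9 CPM per kb, and Plxnb3 at 0.663 and Sema3g at 0.157. Over the 16 group means Sema5b varied most among members with a mean above 1 CPM per kb, 25.9-fold from B6 maturation controls to WSB NPC cultures with ID-8, followed by Sema3b at 18.1-fold, Sema6c at 16.6-fold and Sema4c at 15.3-fold. Plxnb2 varied 2.12-fold and Sema4d 2.52-fold, the least of the 31. Reads of these genes could be placed with little ambiguity, since no member shared more than 1.53% of its 50-base transcript words with other genes. Plxna1 overlapped Gm26811 on the opposite strand over 10.71% of its exons, and Sema4c overlapped D430040D24Rik over 7.27%.

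**Figure D1:**
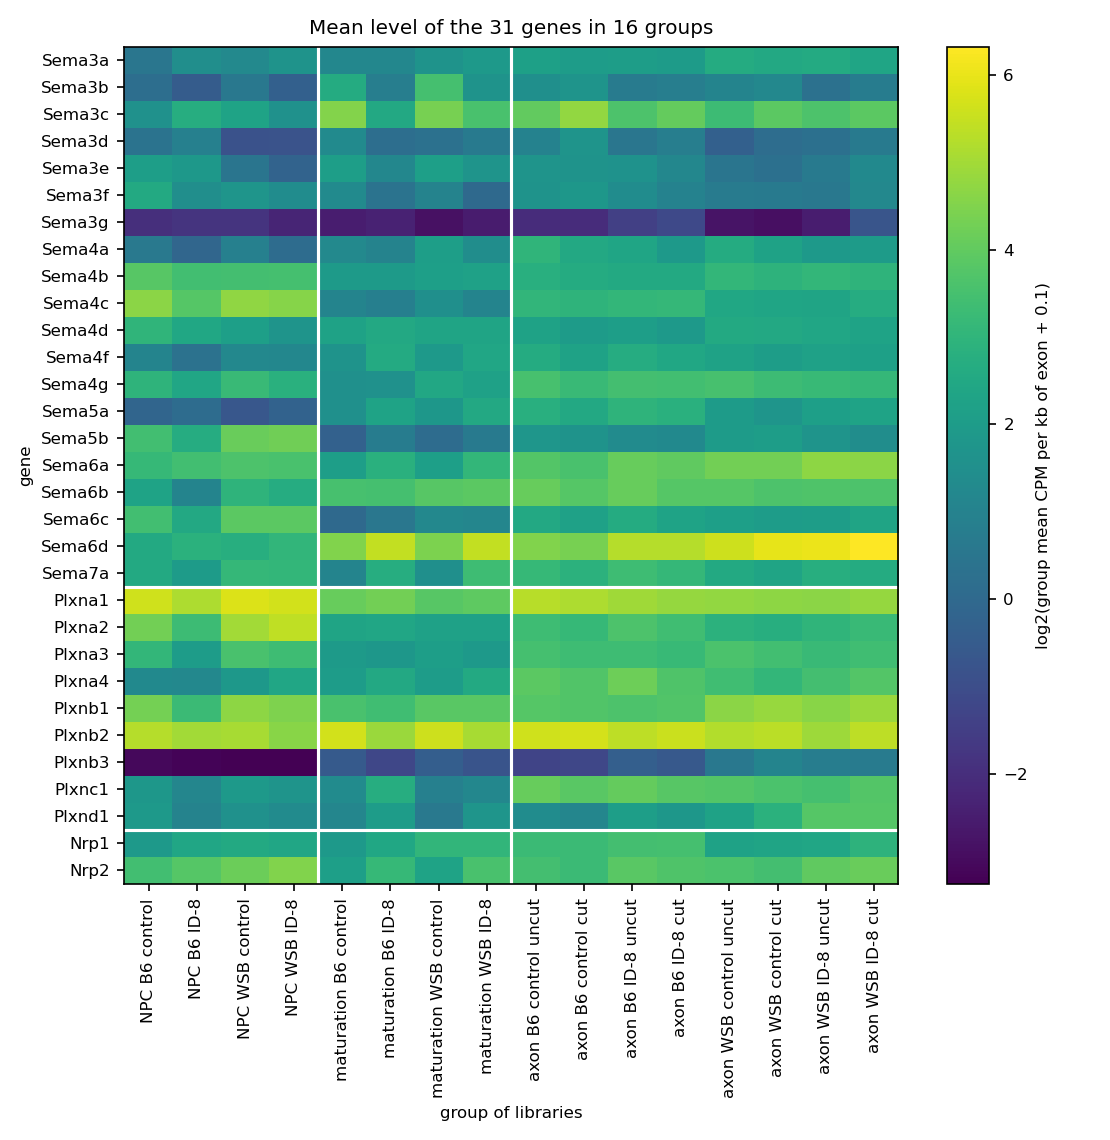
Mean level of each of the 31 genes (rows; semaphorins, plexins and neuropilins divided by white lines) in the 16 groups (columns; NPC, maturation and axon divided by white lines), as log2 of CPM per kb of exon plus 0.1. Plxnb3 and Sema3g form the darkest rows, and the brightest cell is Sema6d in WSB ID-8 cut cultures at 79.6 CPM per kb.

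Between the NPC and axon stages some members rose and others fell, at rates near those of all genes in WSB and with more rises and fewer falls in B6. The difference was tested within the second library block, a run of library numbers in the sample titles, where B6 had 3 NPC and 4 axon control libraries and WSB had 3 of each. In B6 15 of 31 members were higher and 5 lower at the axon stage, against 30.3% and 33.3% of all genes tested. In WSB 10 were higher and 8 lower, against 29.1% and 29.7% of all genes. The ligands Sema3a, Sema3c, Sema4a, Sema4f, Sema5a, Sema6a and Sema6d and the receptors Plxna4, Plxnb3 and Plxnc1 rose in both strains, and Sema4c, Sema5b, Sema6c and Plxna2 fell in both. They were 70.0% of those called in B6 and 77.8% of those called in WSB, shares no higher than the 74.0% and 80.0% over all genes. No member was called in opposite directions. Of 9 fibroblast markers 7 rose with the stage in B6 and 5 in WSB, and of 7 astrocyte markers 7 and 6. In B6 the fibroblast markers summed to 105.9 to 247 CPM in all NPC controls and 2243 to 7197 CPM in all uncut axon controls, and the astrocyte markers to 225 to 318 and 2062 to 2779 CPM. In WSB the fibroblast sums were 163 to 375 and 66.1 to 2176 CPM and the astrocyte sums 252 to 321 and 1567 to 13750.0 CPM. Their part in the stage differences was not tested.

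Among the ligands, Sema5a, a transmembrane semaphorin with thrombospondin repeats that can attract or repel axons, read 17.4, 19.8 and 20.1 CPM in the B6 NPC libraries and 117.7, 149, 114.7 and 121 CPM in the axon libraries. In WSB it read 9.18, 8.42 and 7.46 CPM against 74.2, 63.1 and 71.7 CPM. The stages did not overlap in either strain, and the log2 difference was 2.73 ± 0.17 in B6 (adjusted p = 2.56e-07) and 3.09 ± 0.18 in WSB (adjusted p = 1.5e-07). Sema6d, which acts as a ligand of Plxna1, read 67.04, 56.9 and 46.5 CPM at the NPC stage and 249, 237, 246 and 227 CPM at the axon stage in B6. The WSB values were 77.5, 79.04 and 67.3 CPM and then 247, 759.7 and 589.8 CPM, the lowest of which is from the culture set with few fibroblast and astrocyte markers. Its log2 difference was 2.09 ± 0.28 in B6 (adjusted p = 4.78e-05) and 2.83 ± 0.30 in WSB (adjusted p = 9.92e-06). The secreted Sema3c, an attractant of cortical axons, read 18.4, 22.2 and 12.4 CPM and 80.7, 76.5, 149 and 155 CPM in B6, a log2 difference of 2.69 ± 0.36 (adjusted p = 4.43e-05). In WSB, at 34.2, 17.5 and 43.6 CPM and 94.4, 71.6 and 55.6 CPM, the groups did not overlap either and the difference was 1.28 ± 0.35 (adjusted p = 0.00797), a call that was lost without replicate 1 of each group.

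In the opposite direction, Sema4c, a ligand of Plxnb2, read 123, 108.1 and 84.1 CPM at the NPC stage and 38.4, 39.7, 35.1 and 34.95 CPM at the axon stage in B6. In WSB the 3 NPC libraries lay between 109.3 and 126.1 CPM and the axon libraries read 32.5, 18.7 and 18.5 CPM. It fell in both strains without overlap, with log2 differences of -1.49 ± 0.22 in B6 (adjusted p = 9.1e-05) and -2.28 ± 0.25 in WSB (adjusted p = 1.14e-05). Sema5b, a repellent of sensory and cortical axons, fell, with -1.39 ± 0.20 and -1.84 ± 0.22 (adjusted p = 7.41e-05 and 2.4e-05). Sema6c fell, with -0.87 ± 0.29 in B6 (adjusted p = 0.0205) and -1.66 ± 0.32 in WSB (adjusted p = 0.000816). Sema4b fell in B6, with -0.87 ± 0.12 (adjusted p = 4.89e-05), and its difference in WSB was -0.22 ± 0.13 (adjusted p = 0.152).

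Among the receptors, Plxnc1, which binds Sema7a, read 40.4, 27.6 and 20.6 CPM at the NPC stage and 169, 175, 106.6 and 116.7 CPM at the axon stage in B6. WSB libraries read 27.7, 29.7 and 25.4 CPM and 153, 123 and 126 CPM. The rises were 2.29 ± 0.28 in B6 and 2.31 ± 0.29 in WSB (adjusted p = 2.25e-05 and 3.35e-05). Plxna2, a receptor for Sema6a and, with neuropilins, for class 3 semaphorins, read 416, 376 and 241 CPM and then 197, 216, 143 and 139.6 CPM in B6, and 578, 669 and 449 CPM and then 113.6, 117.5 and 121 CPM in WSB. It fell in both, with -0.96 ± 0.24 (adjusted p = 0.00366) and -2.25 ± 0.27 (adjusted p = 2.33e-05). Plxna4, the partner of Plxna3 in class 3 signalling, rose by 2.66 ± 0.51 in B6 (adjusted p = 0.000671) and 1.60 ± 0.51 in WSB (adjusted p = 0.0172), where the call was lost without replicate 1 and without replicate 3. Plxnb3, a receptor for Sema5a, was close to absent at the NPC stage, with 0, 1 and 1 counts in the WSB libraries and 1 to 21 counts in the B6 libraries, and read 2.71, 4.64 and 3.84 CPM in WSB and 1.33, 1.09, 2.52 and 2.98 CPM in B6 at the axon stage. No fold is given for it, since the WSB counts at the NPC stage are below 3. Nrp1, the co-receptor for Sema3a, rose in B6 by 1.19 ± 0.17 (adjusted p = 6.88e-05), and in WSB its difference was -0.19 ± 0.18 (adjusted p = 0.365). Nrp2, the co-receptor for Sema3f and Sema3c, fell in WSB, with -0.71 ± 0.25 (adjusted p = 0.0286) and differed by -0.23 ± 0.23 in B6 (adjusted p = 0.416). Leaving out a replicate number also ended the calls of Nrp2 (replicate 1 or 2), Plxna1 (2), Sema6a (2), Sema3f and Sema3g (2 or 3) and Sema3a, Sema3c, Sema4a and Sema4f (1) in WSB and of Sema6c (1 or 4), Sema6a (2), Sema7a (2 or 3), Plxnb2 (1 or 3) and Sema3b (1) in B6. In all 8 of 18 calls in WSB and 15 of 20 in B6 held whichever number was left out. Whether the stage difference itself differed between strains was not tested.

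Of the members that the smallest p values do not name, Sema3a rose from the NPC to the axon stage by 1.57 ± 0.31 in B6 and 1.19 ± 0.32 in WSB (adjusted p = 0.00076 and 0.00641). Sema4a rose by 2.22 ± 0.43 and 1.72 ± 0.44 (adjusted p = 0.000681 and 0.00475), and Sema4f by 1.46 ± 0.33 and 1.06 ± 0.35 (adjusted p = 0.00221 and 0.0193). In WSB all 3 calls were lost without replicate 1 of each group, which removes the axon library of the set with few fibroblast and astrocyte markers. Sema6b rose in B6 by 1.86 ± 0.31 (adjusted p = 0.000226), with 0.72 ± 0.31 in WSB (adjusted p = 0.0648), and Plxna1 fell in WSB, with -0.86 ± 0.23 (adjusted p = 0.00682), against -0.31 ± 0.21 in B6 (adjusted p = 0.228).

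**Figure D2:**
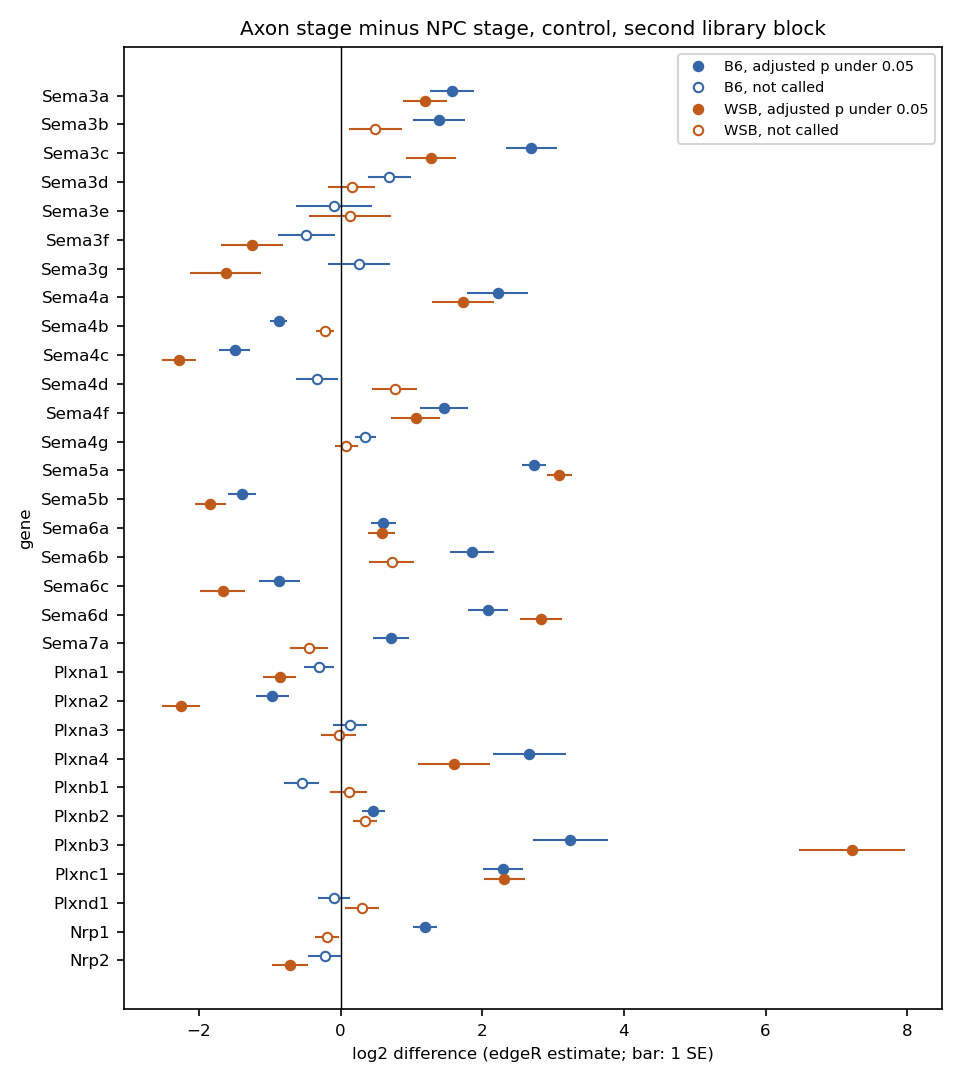
Log2 difference, axon minus NPC stage, in control cultures of the second library block (points, edgeR estimate; bars, 1 standard error; blue B6, orange WSB; filled where the adjusted p was under 0.05). Sema5a, Sema6d and Plxnc1 lie to the right of 2 in both strains, and Sema4c and Sema5b to the left of -1.

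Maturation libraries all came from the third library block, which held no NPC library. Their difference from NPC cultures and the library block therefore cannot be told apart. In B6 11 members were higher and 15 lower at maturation, against 36.8% and 36.4% of all genes tested. In WSB 11 were higher and 16 lower, against 38.5% and 35.8%. The falls with the smallest p were again in Sema4c (-3.67 ± 0.18 in B6 and -3.32 ± 0.17 in WSB), Sema5b (-3.86 and -4.17), Sema6c (-3.52 and -2.76) and Plxna2 (-1.94 and -2.83). Sema3c rose by 3.0 ± 0.27 and 2.05 ± 0.26, and Sema3b, a secreted ligand best known as a tumour suppressor, by 2.51 ± 0.27 and 2.97 ± 0.27, with an adjusted p of at most 5.52e-07 in these 4 tests. Sema6a and Nrp2 fell in both strains at maturation, with -1.07 and -1.56 for Sema6a and -1.28 and -1.89 for Nrp2, with adjusted p of at most 0.000154. The axon and maturation comparisons share NPC controls and are given side by side only.

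At maturation 7 members were called in the same direction with ID-8 in both strains. In B6 6 members were higher and 5 lower with ID-8, against 7.71% and 9.41% of all genes. In WSB 5 were higher and 3 lower, against 2.86% and 3.03%. Sema4f, Sema6a, Sema7a and Plxnd1 rose in both strains and Sema3b, Sema3c and Sema3f fell in both, which is 63.6% of the members called in B6 and 87.5% of those called in WSB, while over all genes these shares were 23.2% and 67.5%. The 3 that fell in both are secreted class 3 ligands, but the other 4 members of that class did not fall in both. Sema3a differed by 0.05 in B6 and 0.35 in WSB and Sema3g by 0.33 and 0.97, and neither was called, while Sema3d and Sema3e fell in B6 and were not called in WSB. All 7 kept their direction within each of the culture experiments. Values below are in the order of replicates 1 to 4, the first pair from the first experiment.

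Sema3b (ENSMUSG00000057969, chromosome 9, 107597674 to 107609229) read 21.2, 26.4, 33.1 and 34.7 CPM in B6 controls and 6.55, 6.33, 8.89 and 10.6 CPM with ID-8. In WSB libraries it stood at 46.1, 37.1, 74.7 and 55.3 CPM and then 16.2, 16.96, 8.11 and 17.03 CPM. Every ID-8 library lay below every control of its strain, and the log2 difference was -1.79 ± 0.27 in B6 (adjusted p = 0.000393) and -1.82 ± 0.27 in WSB (adjusted p = 0.00121). Sema3c (ENSMUSG00000028780, chromosome 5, 17574281 to 17730268) read 160.3, 174, 151 and 181 CPM in B6 controls and 44.6, 46.8, 36.3 and 32.8 CPM with ID-8. In WSB the values were 178, 189.8, 107.6 and 111.0 CPM and 96.5, 100.3, 62.5 and 75.02 CPM. The groups did not overlap in either strain, with differences of -2.0 ± 0.21 in B6 (adjusted p = 2.67e-05) and -0.76 ± 0.21 in WSB (adjusted p = 0.0427). Sema3f, which repels axons through Nrp2, read 11.2, 11.8, 12.6 and 14.3 CPM and then 8.21, 7.15, 3.98 and 6.16 CPM in B6. For WSB the values were 8.28, 9.99, 10.9 and 10.7 CPM and 4.32, 3.89, 6.79 and 4.05 CPM with ID-8. It fell, with -0.92 ± 0.23 in B6 (adjusted p = 0.0121) and -1.02 ± 0.23 in WSB (adjusted p = 0.0171), again without overlap.

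Of the members that rose, Sema7a (ENSMUSG00000038264, chromosome 9, 57940112 to 57962865), which promotes axon growth through integrins, read 5.84, 5.55, 7.75 and 7.14 CPM in B6 controls and 27.99, 34.3, 10.2 and 12.3 CPM with ID-8. In WSB it read 7.03, 7.28, 10.6 and 11.1 CPM and 33.4, 42.4, 32.3 and 23.4 CPM. The difference was 1.75 ± 0.34 in B6 (adjusted p = 0.00287) and 1.92 ± 0.35 in WSB (adjusted p = 0.00451). The groups did not overlap, and the B6 log2 ratio was larger in the first culture experiment (2.45, of means) than in the second (0.60). Plxnd1 (ENSMUSG00000030123, chromosome 6, 115954811 to 115995005), the direct receptor of Sema3e, read 10.2, 10.8, 18.9 and 21.8 CPM and then 15.3, 22.02, 42.3 and 37.7 CPM in B6. The WSB values were 12.6, 12.2, 8.17 and 9.29 CPM and then 21.9, 27.5, 18.6 and 26.9 CPM. The B6 groups overlapped across experiments but not within one, and the differences were 0.96 ± 0.30 (adjusted p = 0.0383) and 1.22 ± 0.30 (adjusted p = 0.0263). Sema6a, a transmembrane ligand of Plxna2 and Plxna4, read 27.5, 30.4, 44.04 and 45.4 CPM and then 53.3, 64.7, 61.6 and 62.9 CPM in B6. WSB libraries read 34.8, 34.7, 44.4 and 40.2 CPM and then 51.7, 73.04, 79.4 and 90.9 CPM. The groups did not overlap, and it rose by 0.76 ± 0.18 (adjusted p = 0.00923) and 0.99 ± 0.18 (adjusted p = 0.00533). Sema4f (ENSMUSG00000000627, chromosome 6, 82911885 to 82939769), found at excitatory synapses, read 17.6, 15.9, 14.8 and 16.3 CPM and then 28.02, 30.1, 30.1 and 36.1 CPM in B6. In WSB libraries it stood at 16.3, 15.4, 23.1 and 22.2 CPM and then 25.4, 27.6, 30.3 and 25.9 CPM. It rose by 0.98 ± 0.14 (adjusted p = 0.000299) and 0.55 ± 0.14 (adjusted p = 0.0324), without overlap in either strain.

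**Figure D3:**
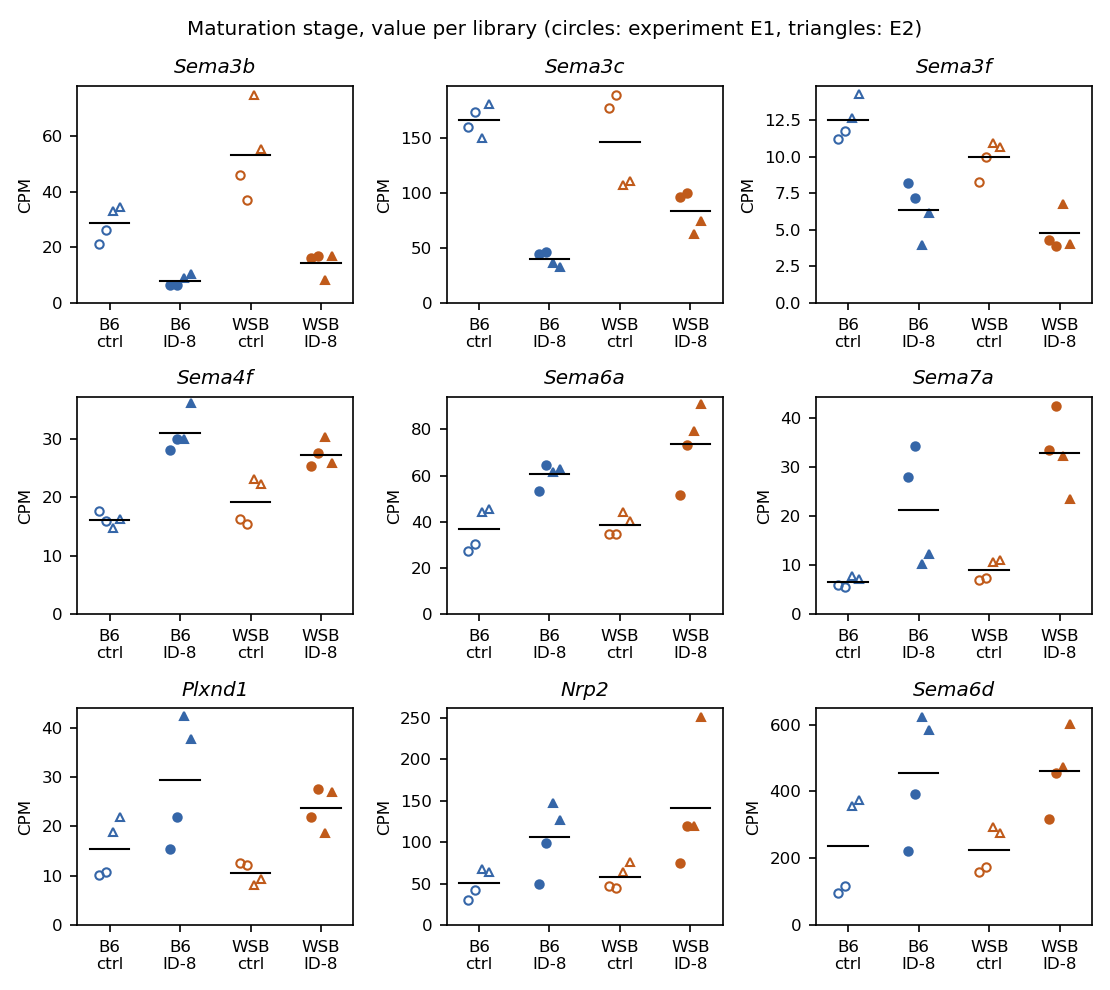
CPM per library at maturation for 9 members (panels), with controls open, ID-8 filled, B6 blue and WSB orange. Circles are the first culture experiment, triangles the second, and the bar is the group mean. Sema3b, Sema3c and Sema3f sit lower with ID-8 in both strains, and Sema4f, Sema6a and Sema7a higher.

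The promoters of the members that moved alike with ID-8 are shown for Sema3c, Sema4f, Sema7a and Plxnd1, the 4 of these 7 genes with an entry in the RefSeq promoter table. Each is the 250 bases before a start in that table, on the gene's strand, in GRCm38.p6. Matches to the GC box, GGGCGG on either strand, are in capitals. The Sema3c window lies inside the GENCODE span of the gene, which begins at 17574281, and is not upstream of it. Sema3c lies on the plus strand at chr5:17574566-17574815, Sema4f on the minus strand at chr6:82939770-82940019, Sema7a on the plus strand at chr9:57939862-57940111 and Plxnd1 on the minus strand at chr6:115995006-115995255.
Sema3c: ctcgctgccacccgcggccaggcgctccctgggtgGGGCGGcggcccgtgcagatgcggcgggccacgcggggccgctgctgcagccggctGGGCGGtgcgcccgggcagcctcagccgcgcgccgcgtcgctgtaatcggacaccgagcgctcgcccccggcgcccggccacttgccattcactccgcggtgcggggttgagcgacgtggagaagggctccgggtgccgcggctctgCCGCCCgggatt
Sema4f: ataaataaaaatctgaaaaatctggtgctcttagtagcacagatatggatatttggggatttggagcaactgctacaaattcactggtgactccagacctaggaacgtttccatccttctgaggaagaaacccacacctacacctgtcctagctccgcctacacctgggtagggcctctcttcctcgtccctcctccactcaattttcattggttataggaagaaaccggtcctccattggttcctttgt
Sema7a: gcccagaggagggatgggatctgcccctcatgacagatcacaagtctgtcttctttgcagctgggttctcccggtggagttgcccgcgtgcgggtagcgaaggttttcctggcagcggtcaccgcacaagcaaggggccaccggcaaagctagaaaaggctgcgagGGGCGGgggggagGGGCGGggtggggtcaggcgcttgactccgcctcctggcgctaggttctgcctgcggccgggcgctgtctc
Plxnd1: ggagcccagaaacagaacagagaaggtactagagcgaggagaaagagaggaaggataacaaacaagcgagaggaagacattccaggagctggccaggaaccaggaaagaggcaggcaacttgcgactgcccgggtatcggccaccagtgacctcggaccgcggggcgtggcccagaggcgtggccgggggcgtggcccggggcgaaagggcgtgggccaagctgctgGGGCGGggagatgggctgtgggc
The GC box occurred 3 times in the Sema3c window, 2 times in Sema7a, 1 time in Plxnd1 and not in Sema4f. Of all 32851 promoters of this length 32.7% held at least 1, and of the 37 promoters of 26 members with an entry 73.0% did. The TATA word TATAAA, found in 12.4% of all promoters, and the palindrome TCTCGCGAGA, found in 0.39%, were in none of the 37. A match describes the letters of a window and no more.

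Further members were called in 1 strain. In B6 Sema3d, a secreted ligand of Nrp1, fell from 12.4, 17.1, 24.8 and 27.4 CPM to 8.68, 7.25, 11.8 and 8.95 CPM (-1.11 ± 0.21, adjusted p = 0.00246). For WSB the values were 10.3, 10.1, 9.51 and 9.64 CPM in controls and 10.99, 15.1, 12.7 and 11.8 CPM with ID-8 (0.40 ± 0.21, adjusted p = 0.317). Tested against each other, the responses of the strains differed for Sema3d, at 1.51 ± 0.30 (adjusted p = 0.035), as the 1 member called there against 0.377% of genes on the higher and 0.0826% on the lower side. The call was lost when any of the 4 replicate numbers was left out. Plxnc1 rose in B6, from 16.8, 18.01, 23.3 and 23.9 CPM to 21.98, 34.5, 77.03 and 79.3 CPM, where 2 controls lay above the lowest ID-8 library (1.40 ± 0.37, adjusted p = 0.0161), and its response did not differ detectably between strains (-1.07 ± 0.51, adjusted p = 0.585). Sema3e fell (-0.91 ± 0.23, adjusted p = 0.0133) and Sema5b rose in B6 (1.19 ± 0.33, adjusted p = 0.0219), the latter with 1.67 in the first experiment and 0.19 in the second as log2 ratios of means. In WSB Nrp2 rose, from 46.9, 44.2, 64.1 and 76.00 CPM to 74.97, 119.6, 118.9 and 250.5 CPM, with groups that overlapped only across experiments (1.33 ± 0.37, adjusted p = 0.0471).

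The culture experiments paired the libraries within a strain, and with the experiment as a block more members were called. Each group had 2 libraries in each of only 2 experiments. The p-values of this fit thus measure in large part the spread between libraries of 1 experiment, not between experiments. In B6 18 were called, 11 higher and 7 lower, against 17.0% and 18.3% of all genes, and in WSB 10 were called, 7 higher and 3 lower, against 10.8% and 10.4%. In B6 the block added rises of Sema5a (0.83 ± 0.29, adjusted p = 0.0374), Sema6c (0.56), Sema6d (1.16 ± 0.20, adjusted p = 0.000357), Nrp1 (0.69) and Nrp2 (1.10 ± 0.23, adjusted p = 0.00193). It also added falls of Plxnb2 (-0.73 ± 0.16, adjusted p = 0.00221) and Plxnb3 (-0.97). In WSB it added rises of Sema5a (0.93 ± 0.29, adjusted p = 0.032) and Sema6d (1.12 ± 0.19, adjusted p = 0.000945). The fall of Sema3c in B6 then exceeded that in WSB by 1.29 ± 0.15 (adjusted p = 0.000189). The response of Sema3d differed between the strains by 1.47 ± 0.21 (adjusted p = 0.00101). For this difference of responses 2.77% of genes were called higher and 1.52% lower. Without the block, leaving out each replicate number in turn kept 4 of the 11 calls in B6 (Sema3b, Sema3c, Sema3d and Sema4f) and 1 of 8 in WSB (Sema3b). Both experiments stayed in each of these fits. Markers of other cells moved too. The summed level of 5 oligodendrocyte markers was 20.4 to 34.7 CPM in B6 controls and 143 to 275 CPM with ID-8, and 38.5 to 54.4 and 84.4 to 97.8 CPM in WSB. In each of these groups 3 of the 5 had a mean of at least 1 CPM, and 3 were called higher with ID-8 in B6 and 1 in WSB. The 6 endothelial markers summed to 17.6 to 31.4 CPM in B6 controls and 2.97 to 8.01 CPM with ID-8, with Cldn5 at 0 in controls and Kdr also among the co-receptors described further on, and the fibroblast list to 504 to 914 and 398 to 634 CPM. The 7 astrocyte markers summed to 802 to 4783 CPM in B6 controls and 2482 to 4886 CPM with ID-8, and to 3878 to 4767 and 5707 to 7626 CPM in WSB, where they did not overlap, with 2 of 7 called higher in B6 and 1 in WSB. The part of these markers in the differences was not tested.

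At the NPC stage cultures of B6 with ID-8 had lower levels of many ligands and plexins. Of 30 members tested, 2 were higher and 17 lower with ID-8, against 18.4% and 22.0% of all genes, with a median log2 difference of -0.47 over the members and -0.04 over all genes. Plxnb3 was not tested, since its counts were too low at this stage. The 2 members that rose were the secreted ligands Sema3a and Sema3c, and those that fell included 6 of the 8 plexins tested, namely Plxna1, Plxna2, Plxna3, Plxnb1, Plxnc1 and Plxnd1. In WSB 0 members were higher and 3 lower, against 4.71% and 4.86% of all genes. Neither Nrp1 nor Nrp2 was called in either strain.

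Sema4c had the smallest p among the members that fell in B6, with a lowest, median and highest value of 84.1, 110.6 and 158 CPM in controls and 39.3, 64.3 and 86.3 CPM with ID-8, so that only the lowest control and the highest ID-8 library overlapped (-0.82 ± 0.14, adjusted p = 0.000177). Plxnb1, the receptor of Sema4d, read 139.6, 195 and 226 CPM and then 48.4, 93.4 and 134 CPM, without overlap (-0.97 ± 0.18, adjusted p = 0.000258). Sema6b, a transmembrane ligand of Plxna4, read 12.4, 19.6 and 25.1 CPM and then 3.06, 8.36 and 11.2 CPM, also without overlap (-1.25 ± 0.24, adjusted p = 0.000359). Sema3f read 20.97, 23.6 and 51.1 CPM and 10.01, 15.8 and 16.3 CPM, again without overlap (-1.01 ± 0.22, adjusted p = 0.00123). These 4 were also called within each library block alone, at -0.76 and -0.87 for Sema4c, -0.78 and -1.15 for Plxnb1, -0.87 and -1.73 for Sema6b and -1.14 and -0.80 for Sema3f. In the first block 3.95% of genes were called higher and 4.03% lower, and in the second 11.7% and 11.0%. The other 15 calls were lost in the first block alone, where each group had 3 libraries. The rises rested on overlapping groups, with Sema3a at 12.1, 18.01 and 26.2 CPM and 15.01, 32.2 and 67.1 CPM (1.08 ± 0.36, adjusted p = 0.0202). Sema3c read 12.4, 19.3 and 37.6 CPM and 16.02, 27.2 and 129 CPM, the highest being replicate 1 (1.17 ± 0.39, adjusted p = 0.0204). Neither rise was called within 1 block, at 1.21 and 0.95 for Sema3a and 1.32 and 1.01 for Sema3c.

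In WSB Plxnb2 fell, from 216, 240.2 and 353 CPM to 163, 181 and 226 CPM (-0.42 ± 0.09, adjusted p = 0.00661). Sema4a, a ligand of plexins of the B and D families, fell from 5.85, 9.78 and 13.5 CPM to 4.22, 5.25 and 6.49 CPM (-0.78 ± 0.21, adjusted p = 0.0209). Sema4g fell from 45.02, 81.2 and 108.1 CPM to 40.6, 60.2 and 77.95 CPM (-0.38 ± 0.12, adjusted p = 0.045). None of these 3 was called within 1 library block, at -0.39 and -0.43 for Plxnb2, -0.55 and -1.0 for Sema4a, and -0.34 and -0.39 for Sema4g. With the library block as the covariate, the strains' responses were told apart for Plxna2 and for no other member. It fell in B6 from 241, 333 and 416 CPM to 45.6, 157 and 283 CPM and read 449, 536 and 669 CPM and 584, 758 and 828 CPM in WSB. The difference of responses was 1.39 ± 0.35 (adjusted p = 0.0346), with 1.44% of all genes called on that side and 1.76% on the other. It was not called in either library block alone, nor without the library block or the filter on low counts. DESeq2 called 4 members, Plxna2, Sema3c, Sema4c and Sema5b, against 3.26% of all genes higher and 4.02% lower. With the culture names of the deposited table as a replicate block, a fit chosen after seeing the data, 13 members were called, these 4 included, against 12.4% and 7.54%.

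**Figure D4:**
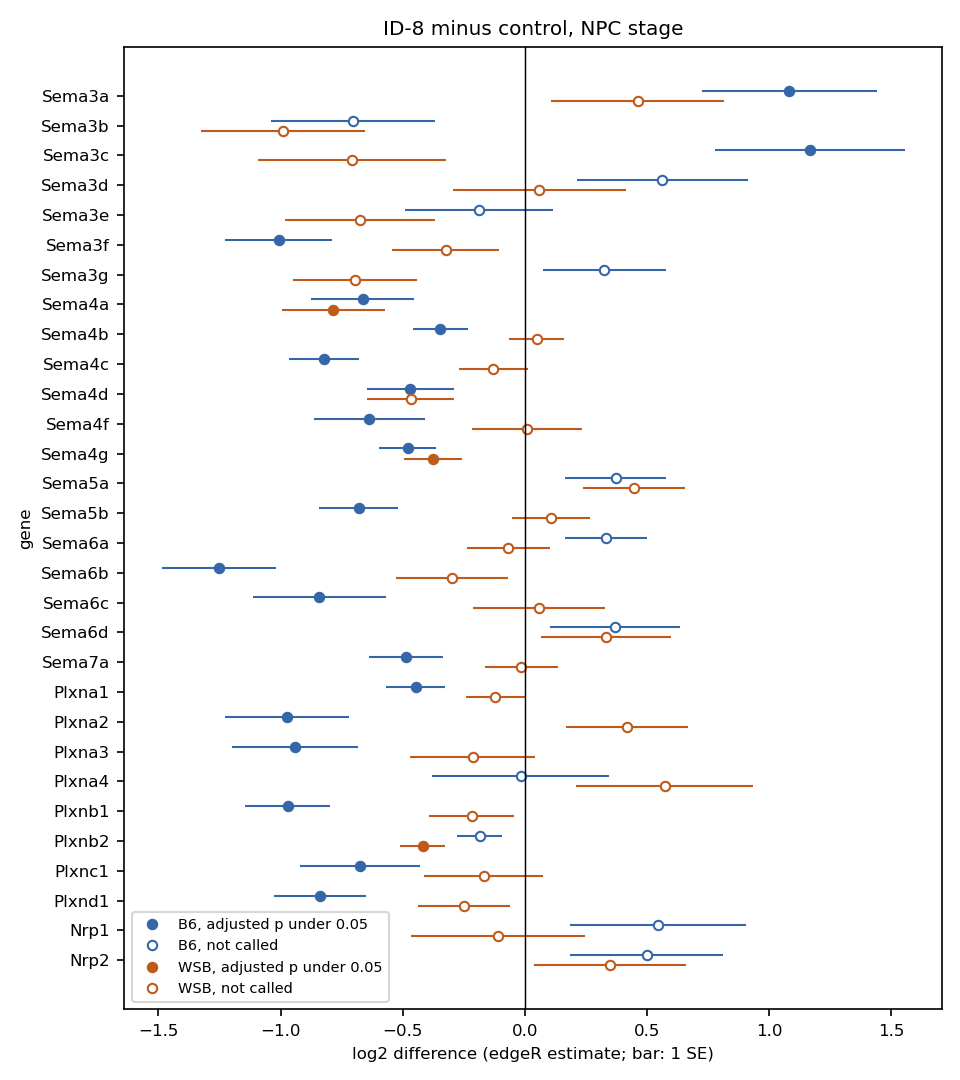
Log2 difference, ID-8 minus control, at the NPC stage for the 30 members tested (points, edgeR estimate; bars, 1 standard error; blue B6, orange WSB; filled where the adjusted p was under 0.05). Most blue points lie left of 0, led by Sema6b at -1.25, while most orange points are open and nearer to 0.

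Cultures with ID-8 also differed in markers of other cells at this stage. In B6 the 5 endoderm markers summed to 2.39 to 14.5 CPM in controls and 38.9 to 264 CPM with ID-8, and all 5 were called higher. Of 9 fibroblast markers 7 were called higher (105.9 to 247 and 221 to 624 CPM), and of 9 pan-neuronal markers 6 were called lower (1907 to 5091 and 328 to 2505 CPM). In WSB 0 of 9 pan-neuronal markers were called, and the endoderm list summed to 1.72 to 10.4 CPM in controls and 4.44 to 25.6 CPM with ID-8. Astrocyte markers summed to 225 to 318 CPM in B6 controls and 399 to 575 CPM with ID-8, and to 252 to 321 and 362 to 414 CPM in WSB, without overlap in either strain. Of the 5 tested, 2 were called higher and 1 lower in B6 and 1 higher in WSB. A mean of at least 1 CPM was reached by 4 of the 7 in both B6 groups. In WSB it was reached by 5 in controls and 4 with ID-8. Gfap had a mean of 0.081 and 0.134 CPM in B6 and 0.032 and 0.012 CPM in WSB, so these sums do not count astrocytes. In B6 the pluripotency markers summed to 270.3 to 753 CPM in controls and 543 to 1139 CPM with ID-8, with 3 of 6 called higher and 1 lower. In WSB the pluripotency markers summed to 24.02 to 45.5 CPM in controls and 49.3 to 258 CPM with ID-8, with 5 of 6 called higher, and the endothelial markers to 25.9 to 71.4 and 8.13 to 19.3 CPM, with 2 of 6 called higher and 2 lower. No marker of these 6 lists was at 0 in any of these groups. Their part in the differences of the semaphorins and plexins was not tested.

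At the axon stage no gene was called with ID-8 in uncut cultures when the library block was the covariate, so 0% of all genes and 0 of 31 members passed in either strain. At an unadjusted p under 0.05 there were 751 genes in B6 and 1322 in WSB, and DESeq2 called 20 and 70. The members among those at an unadjusted p under 0.05, named here after their values were seen, were Plxnb3 and Sema3b in B6 and Sema4g and Plxnd1 in WSB. The culture sets paired the libraries of this stage, so that each ID-8 culture can be read against the control of its own set. With the set as a block 0.685% of genes in B6 were called higher and 0.536% lower, and 1 member was called. In WSB 1.47% were called higher and 1.64% lower, and 2 members were called. Without the library labelled WSB ID-8 cut replicate 3 the shares in B6 were 2.12% and 2.42%, with 2 members, and in WSB 5.64% and 5.60%, with 4 members.

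Sema3b fell with ID-8 in that fit in both strains. In B6 uncut controls it read 12.8, 6.83, 18.6 and 14.6 CPM over the 4 sets and 6.29, 4.4, 10.6 and 8.79 CPM with ID-8, lower in each of the 4 sets (-0.81 ± 0.18, adjusted p = 0.0324). In WSB the controls of the 4 sets read 10.3, 8.95, 6.49 and 12.02 CPM, and the 3 ID-8 cultures, from sets 1, 2 and 4, read 5.96, 5.06 and 5.3 CPM (-1.01 ± 0.18, adjusted p = 0.00287). The groups did not overlap in WSB, and with the library labelled ID-8 cut replicate 3 kept in the fit the difference was -0.95 ± 0.21 (adjusted p = 0.0203). Plxnd1 in WSB read 15.2, 30.1, 27.7 and 63.5 CPM in controls of the 4 sets and 33.1, 116.6 and 156 CPM with ID-8 in sets 1, 2 and 4, higher in each (1.7 ± 0.31, adjusted p = 0.00353, and 1.59 ± 0.37, adjusted p = 0.0263, with that library). In B6 it read 20.8, 19.8, 16.6 and 16.8 CPM and 30.7, 50.4, 24.4 and 18.6 CPM, also higher in each set, but was not called (0.65 ± 0.34, adjusted p = 0.399). Sema6d in WSB read 247, 759.7, 589.8 and 446 CPM in controls and 408, 1045 and 604 CPM with ID-8 (0.65 ± 0.15, adjusted p = 0.0086). It was called only without that library, as it was in B6, where it read 249, 237, 246 and 227 CPM and 426, 485, 386 and 317 CPM (0.70 ± 0.13, adjusted p = 0.00536; 0.71, adjusted p = 0.1, with it). Sema4a in WSB, likewise called only without that library, read 54.9, 26.4, 31.7 and 19.3 CPM and 37.9, 10.4 and 10.9 CPM (-0.95 ± 0.19, adjusted p = 0.00524).

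**Figure D5:**
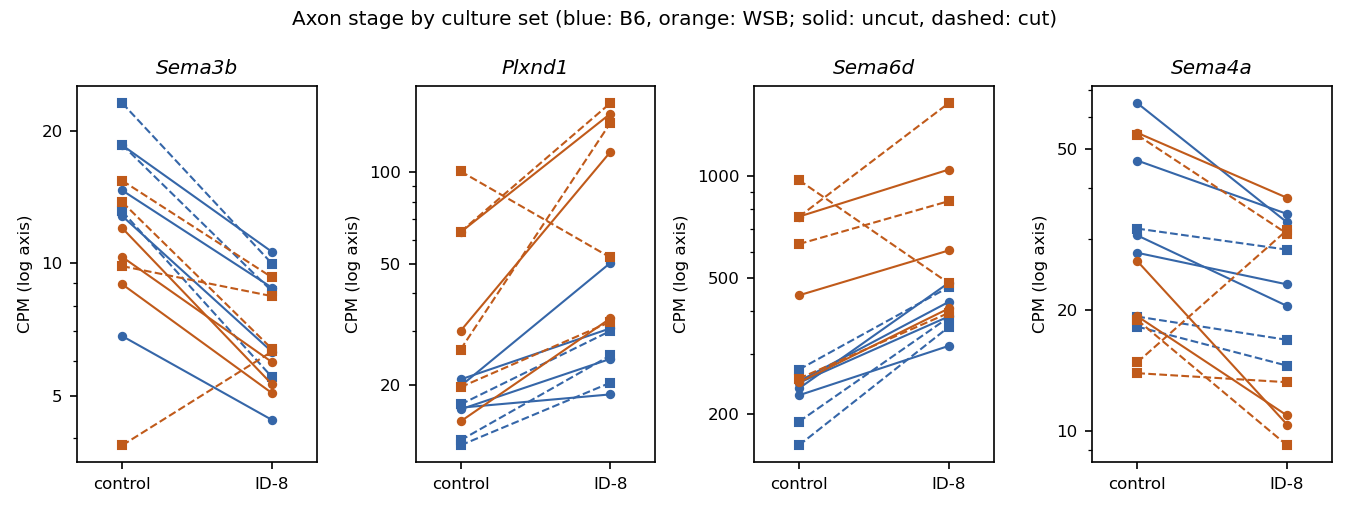
CPM (log axis) of 4 members at the axon stage, each line joining the control and the ID-8 culture of 1 culture set (blue B6, orange WSB; solid uncut, dashed cut). Sema3b falls and Plxnd1 and Sema6d rise along nearly every line; the dashed orange line that runs against the rest ends at the library labelled WSB ID-8 cut replicate 3.

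No member passed the test between cut and uncut cultures. The comparison of cut with uncut cultures, which the design makes in B6 controls, WSB controls, B6 ID-8 and WSB ID-8 cultures, called 0% of all genes and 0 of 31 members in each of the 4 arms, and the difference of the strains' responses called 0% as well. At an unadjusted p under 0.05 there were 182, 717, 72 and 1183 genes in these arms, and DESeq2 called 1, 8, 2 and 16. For the difference of responses the numbers were 137 and 8, and no DESeq2 call was a member. The set block called no member either, but its share over all genes is not given here, so this count is not a result about the members. The members with an unadjusted p under 0.05, named after their values were seen, were Sema4g in B6 controls (-0.28 ± 0.12), Sema4g in WSB controls (-0.28 ± 0.12) and Nrp1 in WSB ID-8 cultures (0.52 ± 0.20), each with an adjusted p of at least 0.69. Without the library labelled ID-8 cut replicate 3 the value for Nrp1 was 0.21 ± 0.15 and again no member was called. Sema3a, a repellent of axons also found in neural scars, read 47.1, 62.8, 64.4 and 70.9 CPM in uncut B6 controls and 45.9, 61.3, 58.9 and 57.5 CPM in cut ones. In WSB controls it read 110.3, 79.3, 72.6 and 72.8 CPM uncut and 97.3, 63.8, 54.1 and 100.3 CPM cut, and the groups overlapped in both strains. Within culture sets Sema3a was lower in the cut culture in 4 of 4 sets in B6 and 3 of 4 in WSB, and with the set as a block the differences were -0.14 ± 0.14 (adjusted p = 0.773) and -0.18 ± 0.14 (adjusted p = 0.501). Sema3c, named after its values were seen, was higher in the cut culture in each of the 8 control sets. In B6 it read 80.7, 76.5, 149 and 155 CPM uncut and 125, 105.8, 258 and 277 CPM cut, and in WSB 94.4, 71.6, 55.6 and 60.9 CPM and 100.4, 199, 61.99 and 67.04 CPM. It did not pass the test with the set as a block (0.68 ± 0.23, adjusted p = 0.572, in B6 and 0.47 ± 0.23, adjusted p = 0.301, in WSB).

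Between the strains, 8 of 30 members were higher and 5 lower in WSB than in B6 NPC controls, against 20.0% and 25.0% of all genes, so that the members were called about as often as genes in general. The secreted ligand Sema3e, which repels through Plxnd1, read 18.3, 38.9 and 56.8 CPM in B6 and 5.8, 11.5 and 16.7 CPM in WSB, without overlap (-1.69 ± 0.31, adjusted p = 0.000183). It was called within each library block, at -1.81 and -1.59, where 9.21% of genes were higher and 15.2% lower in the first block and 4.98% and 11.3% in the second. Of the 13 calls of this comparison it was the 1 that held in every alternative run. Sema3d read 8.56, 10.4 and 12.5 CPM and 3.12, 3.79 and 5.04 CPM, also without overlap (-1.36 ± 0.36, adjusted p = 0.00405; -1.31 and -1.45 within the blocks, called in the second). Sema4d, the ligand of Plxnb1, was lower in WSB (-0.77 ± 0.18, adjusted p = 0.00152), and so was Sema3f (-0.77 ± 0.22, adjusted p = 0.00734), but Sema3f differed by -1.35 in the first block and -0.20 in the second. Higher in WSB, with overlapping groups, were Sema5b, at 59.3, 62.99 and 128 CPM in B6 and 96.6, 118.4 and 154 CPM in WSB (0.81 ± 0.16, adjusted p = 0.000397), and Sema7a, at 13.6, 18.5 and 24.9 CPM and 22.7, 27.2 and 35.6 CPM (0.65 ± 0.15, adjusted p = 0.00171). Sema6a (0.57 ± 0.17) and Sema6b (0.76 ± 0.23) were higher too, with adjusted p of 0.00972 and 0.0111. The receptors Plxna2 (0.78), Plxnb1 (0.46) and Nrp2 (0.82) were higher in WSB, and with library totals as the only scaling Plxnb1, Nrp2 and Sema4g were not called. That scaling gave 2544 higher and 4875 lower genes over the whole table, against 3444 and 4319. The 6 pluripotency markers were all lower in WSB, at a sum of 270.3 to 753 CPM in B6 and 24.02 to 45.5 CPM in WSB, and their part in these differences was not tested.

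At maturation 5 members were higher in WSB controls and 1 lower, against 7.38% and 7.39% of all genes. Sema6c read 6.43, 5.71, 4.83 and 4.6 CPM in B6 and 12.2, 11.3, 13.6 and 15.7 CPM in WSB, without overlap (1.29 ± 0.25, adjusted p = 0.00269), and its call alone held when each replicate number was left out. Nrp1 read 19.7, 24.9, 49.7 and 48.5 CPM in B6 and 91.8, 75.4, 83.5 and 70.4 CPM in WSB (1.17 ± 0.26, adjusted p = 0.00649), and Sema4g 19.8, 19.1, 29.4 and 28.5 CPM and 42.6, 45.5, 55.4 and 48.1 CPM (0.98 ± 0.23, adjusted p = 0.00851). In both of these genes every WSB library lay above every B6 library. Sema3b (0.89 ± 0.26, adjusted p = 0.0308) and Sema4c (0.47 ± 0.15, adjusted p = 0.0411) were higher as well, and Sema3d was lower (-1.05 ± 0.21, adjusted p = 0.00358). Fibroblast markers, of which 5 of 9 were called higher in WSB, summed to 504 to 914 CPM in B6 and 1539 to 4146 CPM in WSB, and their part was not tested.

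In uncut axon controls 0 members were higher and 2 lower in WSB, against 5.68% and 7.56% of all genes. Among axon libraries the third library block held only the fourth WSB set and no B6 library. With the block as the covariate, this strain difference therefore rests mainly on the other WSB sets. Nrp1 read 101.1, 76.5, 96.9 and 99.04 CPM in B6 and 42.5, 48.4, 42.5 and 51.1 CPM in WSB (-1.05 ± 0.19, adjusted p = 0.000716), so that it was lower in WSB here and higher in WSB at maturation, a reversal that was not tested as such. Sema3d read 15.2, 10.4, 20.3 and 18.6 CPM and 1.75, 5.59, 4.51 and 12.1 CPM (-1.91 ± 0.53, adjusted p = 0.0181). The 1 WSB library inside the B6 range was that of the fourth set. The call was lost without replicate 3, without replicate 4 and without the library block. Sema3d was thus the 1 member called lower in WSB controls at all 3 stages. The library labelled WSB ID-8 cut replicate 3 is in neither group compared here. It enters through the estimate of the library block, the filter, the scaling and the shared spread. Without it Sema6d (1.22 ± 0.41, adjusted p = 0.0454) and Plxnb1 (1.02 ± 0.33, adjusted p = 0.0382) were also called, both higher in WSB. The lowest WSB value of Sema3d, 1.75 CPM, was that of the set with few fibroblast markers. In uncut controls the fibroblast markers, of which 1 of 9 was called lower in WSB, summed to 2243 to 7197 CPM in B6 and 66.1 to 2176 CPM in WSB. The endothelial markers, of which 4 were called lower in WSB, summed to 23.4 to 178 and 4.73 to 22.5 CPM. Neither list overlapped between the strains, and their part in the lower Nrp1 and Sema3d was not tested.

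Co-receptors, effectors and other ligands of the pathway were followed as lists. Of 24 plexin effectors, such as the collapsin response mediators of the Dpysl family that carry the signal of Sema3a to microtubules, 2 were higher and 10 lower with ID-8 in B6 NPC cultures, against 18.4% and 22.0% of all genes, and 0 were called in WSB, against 4.71% and 4.86%. The lowest p among those that fell belonged to Arhgef12 (-0.59 ± 0.10, adjusted p = 0.000151) and Arhgef11 (-0.69 ± 0.12, adjusted p = 0.000153), RhoA exchange factors that bind plexins of the B family, and Farp1 and Farp2 fell, with -0.43 and -0.71. At maturation 5 effectors were higher and 0 lower with ID-8 in B6, against 7.71% and 9.41% of all genes, and 3 higher and 0 lower in WSB, against 2.86% and 3.03%. The kinase Fyn, which acts below plexins of the A family, rose in both (0.67 ± 0.12, adjusted p = 0.00118, and 0.47 ± 0.12, adjusted p = 0.0262), as did the oxidoreductase Mical2 (0.40 and 0.43). Dpysl5 rose in B6 (0.74) and Dpysl3 in WSB (1.16).

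Of 12 co-receptors, 0 were higher and 4 lower with ID-8 in B6 NPC cultures, against 18.4% and 22.0% of all genes. Among the 4, L1cam, the partner of Nrp1 in Sema3a signalling, fell, with -1.24 ± 0.34 (adjusted p = 0.00663). At maturation in B6 1 was higher and 3 lower, against 7.71% and 9.41% of all genes. Nrcam rose (1.12). The VEGF receptor Kdr fell (-3.43), as did the integrins Itgb1 (-1.17 ± 0.18, adjusted p = 0.000608) and Itga1 (-1.75), which form the integrin that Sema7a binds. In WSB 1 was higher and 1 lower, against 2.86% and 3.03% of all genes. Itgb1 fell there too (-0.70 ± 0.18, adjusted p = 0.0347) and Met rose (1.41). Of 5 further ligands of the neuropilins, 0 were higher and 2 lower with ID-8 at maturation in B6, and 0 higher and 1 lower in WSB, against the same shares of all genes. Vegfc fell in both strains (-1.03 in B6 and -0.94 in WSB, adjusted p = 0.0149 and 0.0493) and Vegfd in B6 (-1.79). In B6 NPC cultures 2 were higher, Vegfc (1.13) and Vegfd (1.74), and 1 was lower, Pgf, against 18.4% and 22.0% of all genes. From the NPC to the axon stage 7 of the 24 effectors were higher and 6 lower in B6, against 30.3% and 33.3% of all genes. In WSB 7 were higher and 4 lower, against 29.1% and 29.7%. Rnd1, a small G protein that binds plexins, rose in both strains (1.56 ± 0.20 and 1.64 ± 0.21, adjusted p = 2.95e-05 and 3.4e-05), and Dpysl2 did as well (1.53 and 1.04). Dpysl4, Gipc1, Rras and Fes fell in both. Of the 5 neuropilin ligands, 3 were higher and 1 lower at the axon stage in B6, and 2 higher and 1 lower in WSB, against the shares given for the effectors. Pgf and Vegfb rose in both strains and Vegfa fell in both, the latter with -0.91 and -1.61.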

How the data were processed

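PolyA RNA of 76 sequenced samples was deposited, and 6 libraries sequenced in 2 runs were summed, which left 70 libraries. The values are expected counts per gene made by the authors. The submitters' processing notes name Bowtie2, RSEM, featureCounts, limma and the build GRCm38, with no versions, and how reads of WSB were aligned beyond that is not given in the sources used here. Of the deposited expected counts 9.318% were not whole, and these were rounded for the tests. Of the genes, 1317 had no symbol.

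Each stage was fitted over all its libraries with edgeR 4.0.16 (robust quasi-likelihood test, TMM factors, filterByExpr, Benjamini-Hochberg adjustment), with the library block as a covariate at the NPC and axon stages. The maturation fit alone was tested on simulated data, for ID-8 in B6. Those libraries were drawn independently, with no effect of experiment, culture set or library block. DESeq2 1.42.0, other scalings, filters and blocks, and leaving out each replicate number were alternatives. Levels are CPM of the library total, and sequences are RefSeq's, of GRCm38.p6. All 31 members, the pathway lists and the marker lists were chosen with earlier results of these data known. Per comparison, up to 4 members with the smallest p in each direction and a mean log2 CPM of at least 1 were named with full values, besides members called the same way in at least 3 comparisons of one kind, and up to 4 genes of each list.

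The labels number the cultures. Deviations from the group means of axon libraries of the same culture set correlated over 0.1 in 21 of 21 pairs in B6 (lowest 0.473) and in 19 of 21 in WSB, and in 19 of 19 without ID-8 cut replicate 3. Maturation libraries of the same experiment did so in 8 of 8 pairs in each strain. No pair of replicates agreed within sampling noise, with a chi-square per degree of freedom of at least 8.56.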

Additional observations from a re-analysis of the deposited data

Results flagged for a closer look

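In 29 of 434 combinations of a member and a group of at least 4 libraries, 1 library lay apart from the others of its group by Dixon's criterion. Chance does this in about 1 in 20 groups, and no cause was tested.

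At the NPC stage these were, among ligands, Sema3c at 128.7 CPM in B6 ID-8 replicate 1 and 17.47 CPM in WSB control replicate 5, Sema3d at 40.04 CPM in B6 ID-8 replicate 1 and Sema5b at 127.6 CPM in B6 control replicate 3. Among receptors they were Plxnb2 at 353.1 CPM, Plxnd1 at 29.93 CPM and Nrp1 at 89.29 CPM, all in WSB control replicate 2, Plxnb3 at 0.203 CPM in B6 ID-8 replicate 3 and 0.1789 CPM in WSB control replicate 1, Plxnc1 at 23.12 CPM in WSB ID-8 replicate 6 and Nrp2 at 480.9 CPM in WSB ID-8 replicate 5.

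At maturation Sema3b at 8.112 CPM, Sema3f at 6.793 CPM and Sema5b at 12.54 CPM lay apart in WSB ID-8 replicate 3, and Sema3e at 30.09 CPM and Sema5a at 137.8 CPM in B6 ID-8 replicate 2.

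In B6 cultures of the axon stage Nrp1 lay apart at 76.48 CPM in uncut and 80.4 CPM in cut control replicate 2, Sema3f at 27.04 CPM in cut control replicate 2, Sema4b at 37.55 CPM in uncut control replicate 3 and Sema7a at 41.02 CPM in uncut ID-8 replicate 1. In WSB cultures Sema4d at 59.27 CPM and Plxna1 at 318.2 CPM lay apart in uncut control replicate 1, and Sema4a at 54.23 CPM in cut control replicate 1, all from the set with few fibroblast markers. Plxna3 at 60.88 CPM and Plxnb3 at 25.49 CPM lay apart in uncut control replicate 4, Plxnb3 at 35.66 CPM in cut control replicate 4, and Sema3g at 0.3583 CPM in cut control replicate 3 and 8.332 CPM in cut ID-8 replicate 4.

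The response to ID-8 differed between the strains in the test of the difference itself for Plxna2 at the NPC stage (log2 1.39 ± 0.35) and for Sema3d at maturation (log2 1.51 ± 0.30).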

How the results depend on the processing

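Over the alternatives run, values of called members stayed on their side of the threshold in 1009 cases and lost the call in 183, and none reversed. The number of members called is given here. Shares over all genes are given above for only some of these settings, and they differed between settings. The counts therefore describe the settings and are not results about the members. At the NPC stage the ID-8 difference in B6 called 4 in the first library block, 4 there with the replicate block and 10 in the second block. In WSB these settings called 0, 0 and 0, no library block called 1, and the culture names as a replicate block 8. The strain difference called 6, 7 and 5. The difference of responses called 4 with DESeq2, 13 with culture names as a replicate block, and 0 in the first block, there with the replicate block, in the second block, without a filter and without a library block. At maturation the experiment within strain as a replicate block called 18 in B6, the WSB difference called 5 without a filter, and the difference of responses called 2 with DESeq2, with the experiment block and with the block within strain. At the axon stage the set as a replicate block called 1 in B6 and 2 in WSB, and 2 and 4 also without WSB ID-8 cut replicate 3. The strain difference there called 5 with DESeq2 and 4 without that library. Leaving out each replicate number called 1 to 5 for the strain difference at the axon stage, 18 to 19 for axon against NPC in B6 and 12 to 18 in WSB, 5 to 10 for ID-8 at maturation in B6 and 1 to 5 in WSB, 2 to 4 for the strain difference and 0 for the difference of responses there, and 0 for ID-8 and axotomy at the axon stage. Library totals as the only scaling, culture names, the experiment within strain and the omission of 1 library were chosen after seeing the data. NPC libraries with the same replicate number correlated over 0.1 in 3 of 3 pairs of each strain in the first block. Across both strains, as the replicate block was fitted, 13 of 18 pairs did so, with a lowest of -0.022. In the second block, paired by culture name, 2 of 3 pairs of each strain did so. The replicate block of the first library block is therefore given here alone. The cause of these changes was not tested.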
